A study of Mus musculus with 6 samples.

Results

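The extraembryonic visceral endoderm cells described here were 1106 of the 17277 cells that passed the same filters in 6 single-cell RNA libraries of mouse embryos, with 1 library for each stage from E3.5 to E5.5 (days of embryonic development). They came from the E5.0, E5.25 and E5.5 libraries, which held 13741 passing cells. A cell passed with at least 1500 detected genes, at least 5000 UMIs (unique molecular identifiers, each marking 1 captured RNA molecule) and at most 15% mitochondrial UMIs. A visceral endoderm cell had, per 10000 UMIs, a sum of at least 15 for Cubn, Lrp2, Dab2 and Amn and a sum under 5 for Pou5f1, Slc7a3, Pim2 and L1td1, and its sum for Lama1, Lamb1, Lamc1, Col4a1 and Col4a2 did not exceed that for Cubn, Apoa1, Ttr, Apoc2 and Apob. Of 3435 such cells, the members were those with 0 UMIs of Lhx1, Sfrp1, Otx2, Cer1 and Lefty1, and the 3 libraries, in the order of their stages, held 430, 410 and 266 of them. Members were thus chosen by the measured UMI counts of these 22 genes, which are given below only as a description. Values listed in threes follow the order E5.0, E5.25, E5.5.

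The embryos carried no allele or treatment named in the labels. Dams were B6SJLF1/J females of 7 weeks and sires were B6CBAF1/J males, and embryos of all 3 stages were dissected from the uterus and dissociated whole. Cells of the E5.5 library went through a 20 µm filter, whereas those of E5.0 and E5.25 did not, and the labels do not say how many embryos went into each library. With 1 library per stage no test between stages was possible, and stage cannot be told apart from library, filter and depth. Intervals in square brackets beside CPM values and shares of cells are exact 95% intervals that cover counting error only. Those beside the median of a gene list are order-statistic intervals. They reflect the spread between the genes of the list, and for the shortest lists they are the full range, which can cover under 95%.

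Visceral endoderm is the outer epithelium of the early postimplantation embryo. Its cells take up maternal proteins through the cubilin and megalin receptors, digest them in lysosomes and secrete apolipoproteins and other carriers before a yolk sac or liver exists. The part over the epiblast carries transcription factors such as Lhx1 and Otx2 and, anteriorly, the NODAL and WNT antagonists Cer1, Lefty1 and Sfrp5, while the part over the extraembryonic ectoderm lacks them. Parietal endoderm, which migrates along the trophoblast, lays down Reichert's membrane from laminin and collagen IV.

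The genes that chose the cells were at high levels in the members. Cubn, the cubilin receptor, stood at 3617, 3367 and 2251 CPM (UMIs of the gene scaled by the UMIs summed over the class). Apoc2, an apolipoprotein that activates lipoprotein lipase, stood at 988, 1798 and 2009 CPM, and Ttr, the thyroid hormone carrier transthyretin, at 758, 1138 and 1021 CPM. In visceral endoderm cells with at least 3 UMIs of the 5 genes, Apoc2 was at 909, 1065 and 834 CPM and Ttr at 1075, 1158 and 951 CPM. Apob was lower in members than in those cells, at 276, 412 and 544 CPM against 699, 874 and 740 CPM. High Ttr and Apob thus did not set members apart within visceral endoderm. With every cell thinned to 5000 UMIs, Apoc2 had a UMI in 86.5%, 95.6% and 96.2% of members, against 2.2%, 1.72% and 4.54% of trophoblast-type cells (94.4%, 99% and 97% of members unthinned). Endoderm genes outside the rule were present as well: Apoe was at 1302, 1712 and 1657 CPM, the transcription factor gene Hnf4a at 140, 138 and 111 CPM, and Gata4 at 376, 328 and 355 CPM. The name visceral endoderm rests on several genes, while the word extraembryonic rests on the absence of 5 genes in single cells and on no position in the embryo.

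That absence depends on how deeply a cell was read. Members had medians of 14468, 14835 and 6733 UMIs. The visceral endoderm cells with at least 3 UMIs of the 5 genes, called the embryonic class below, numbered 1714 and had medians of 15890, 15972 and 6895 UMIs. After thinning to 5000 UMIs, 10.4%, 8.12% and 1.55% of the embryonic class also read 0 for all 5 genes. A UMI of the 5 genes was seen at that depth in 2.57%, 2.74% and 4.14% of trophoblast-type cells and in 59.4%, 64.1% and 69% of epiblast-type cells, where Otx2 is normally active. For parietal-type cells, an endoderm class defined below, the shares were 7.88%, 3.63% and 20.8%. A further 615 visceral endoderm cells had 1 to 2 UMIs of the 5 genes.

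Few members lay near the limits on receptors and epiblast genes, and more lay near the laminin limit. A receptor sum of 15 to under 20 was found in 5, 2 and 9 members, and 5, 3 and 23 cells just outside had 10 to under 15. An epiblast sum of 4 to under 5 was found in 10, 12 and 10 members, with 1, 2 and 12 cells at 5 to under 6. A laminin and collagen sum above 0.5 of the secreted sum was found in 99, 79 and 32 members, and 85, 36 and 30 cells just outside had a sum above it but at most 2 times as high. The median member had an epiblast sum of 1.54, 1.44 and 1.43 and a sum of 0 for the trophoblast genes Elf5, Tfap2c, Hand1 and Ascl2 in each library.

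Members made up 24.6% [22.6, 26.7] of visceral endoderm cells in the E5.0 library, 36.2% [33.4, 39] in that of E5.25 and 48.3% [44, 52.5] in that of E5.5. With all cells thinned to 5000 UMIs the shares with 0 UMIs were 42.6% [40.3, 45], 49.6% [46.6, 52.5] and 51.7% [47.5, 56]. The intervals of the 3 libraries were apart from one another in the unthinned shares, and those of E5.25 and E5.5 overlapped after thinning. As a share of all passing cells the members were 7.89%, 10.5% and 6.08%, so no steady order over stages was seen on that denominator.

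**Figure D1:**
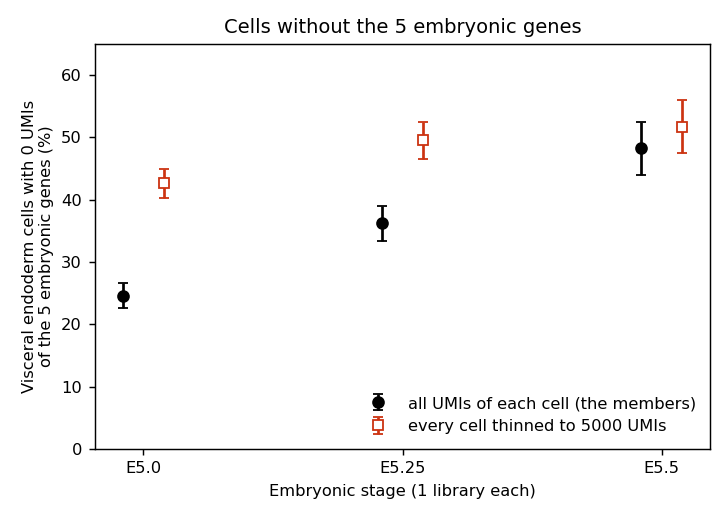
Share of visceral endoderm cells with 0 UMIs of Lhx1, Sfrp1, Otx2, Cer1 and Lefty1 in each library, with 95% Clopper-Pearson intervals, read from all UMIs (circles) or after thinning each cell to 5000 UMIs (squares). The circles go from 24.6% to 48.3% and the squares from 42.6% to 51.7%.

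The summed counts behind the members' levels were 6739004, 6398768 and 2048951 UMIs, so that a count of 0 allows up to 0.445, 0.469 and 1.46 CPM. The whole series held 42328 barcodes and 391375562 UMIs, and the passing cells of E5.5 were the shallowest of these 3 libraries (medians of 17691, 20226 and 7832 UMIs). Pairs of libraries shared 5, 12 and 3 barcodes among passing cells, and 1 of these was a member in both. Uterine epithelium markers summed to 22, 22.5 and 41 CPM over 12 genes in the members and decidual stroma and blood markers to 7.86, 15.2 and 6.83 CPM over 14 genes, with Ltf, Lcn2, Prl8a2 and Col1a1 at 0 in all 3 libraries.

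Against the embryonic class of the same library, members were at least 2-fold higher in each of the 3 libraries for 47 of the 6684 genes that had 20 CPM or more in either class (0.703%) and at least 2-fold lower for 109 (1.63%). The genes in the first group include lipid binders, growth factors and their receptors, and regulators of sterol synthesis, and those in the second include FGF ligands, ephrin and WNT pathway genes and the regulators of anterior identity. Because the classes were cut by 5 genes of the same cells, these counts describe the classes and are no test. In the cells with 1 to 2 UMIs, 44 of the 47 and 98 of the 109 genes lay between the other classes in every library, which was the case for 1045 of the 6684 genes. All these classes are steps of the same 5-gene count, and the called genes were picked for a wide gap between the outer classes. Lying between was thus fixed in part, and the contrast with all genes is no test.

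The widest difference among the higher genes was that of Fabp1, the liver fatty acid binding protein (chromosome 6, 71199827 to 71205023, plus strand, GRCm38). Fabp1 was at 50.5 [45.2, 56.1], 71.3 [64.9, 78.1] and 52.7 [43.2, 63.6] CPM in members and at 7.14 [5.94, 8.52], 5.58 [4.18, 7.29] and 3.28 [1.07, 7.65] CPM in the embryonic class. Members were thus 7.06-fold, 12.8-fold and 16.1-fold higher, and no interval of one class met one of the other. At 5000 UMIs a Fabp1 UMI was found in 19.8%, 21.5% and 20.3% of members, 3.17%, 1.48% and 1.55% of the embryonic class and at most 0.245% of trophoblast-type cells. Most members therefore had no Fabp1 UMI at this depth, and the unthinned shares were 35.1%, 42.9% and 25.2%. Fabp3, the fatty acid binder first known from heart, was at 1110, 917 and 666 CPM in members against 453, 244 and 197 CPM.

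Several secreted factors belonged to the higher genes. Nrg1, the neuregulin ligand of ERBB receptors (chromosome 8, 31814551 to 32884029, minus strand), was at 664 [645, 684], 529 [511, 547] and 203 [184, 224] CPM in members and at 134 [128, 139], 116 [109, 123] and 57.1 [45.7, 70.4] CPM in the embryonic class, 4.97-fold, 4.55-fold and 3.56-fold apart. Bmp6, a bone morphogenetic protein, was at 97.8, 130 and 128 CPM against 36.3, 31.7 and 26.9 CPM. Apln, the ligand of the apelin receptor, was at 66.5, 63.1 and 67.4 CPM against 22.8, 14.1 and 17.1 CPM. Members of all 3 libraries were above the embryonic class for each of these ligands. Ihh, the hedgehog ligand of endoderm, was at 27.9, 35.2 and 29.3 CPM against 9.87, 10.8 and 7.87 CPM, and Fst, the activin antagonist follistatin, at 77.6, 71.7 and 31.7 CPM against 6.68, 4.73 and 9.84 CPM.

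Receptors, transporters and matrix genes made up another share of this group. The water channel gene Aqp8 was 2.11-fold, 3.95-fold and 4.74-fold higher in members, and stood at 225, 107 and 42.6 CPM in the embryonic class. Pdgfra, a PDGF receptor and early primitive endoderm gene, was at 135, 122 and 88.3 CPM against 62.4, 49.6 and 30.2 CPM, and the growth hormone receptor gene Ghr at 206, 276 and 168 CPM against 101, 88.8 and 72.8 CPM. Cdh4, which encodes R-cadherin, was 3.28-fold, 3.25-fold and 2.78-fold higher, and Timp3, an inhibitor of matrix metalloproteinases, 2.92-fold, 3.81-fold and 2.3-fold. Of the other genes with the largest differences, S100a1 encodes a calcium-binding protein, Klhl13 an adaptor of a ubiquitin ligase, and Rhox6 a homeobox protein also known from placenta. Their folds lay between 2.07 (S100a1, E5.0) and 4.09 (Klhl13, E5.0), and Nhsl2 lay within the same bounds.

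Among transcription factors, Maf, a basic leucine zipper factor (chromosome 8, 115682942 to 115707794, minus strand), was at 231 [219, 242], 310 [297, 324] and 202 [183, 222] CPM in members and at 102 [97.2, 107], 86.6 [80.8, 92.7] and 79.4 [65.9, 94.9] CPM in the embryonic class. At 5000 UMIs it had a UMI in 64%, 76.1% and 57.5% of members and in 37.7%, 31.7% and 28.9% of the embryonic class, with at most 0.406% of trophoblast-type cells. Klf8 was at 150, 155 and 115 CPM against 52.8, 40.8 and 39.4 CPM, and Klf4 at 43, 52 and 41 CPM against 18.8, 17.1 and 18.4 CPM. Esrrg, an orphan nuclear receptor gene, was at 34.3, 41.1 and 21 CPM against 7.43, 4.94 and 4.59 CPM. Levels of Maf, Klf8, Klf4 and Esrrg were thus apart in every library. Of 18 endoderm transcription factors measured, Maf and Klf4 were higher by the rule of 2-fold in every library, Foxa1 and Prdm1 lower, and the median log2 ratio (of CPM plus 10, here and for every list) was 0.33 [-0.09, 0.71], beside 0 for all genes tested.

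**Figure D2:**
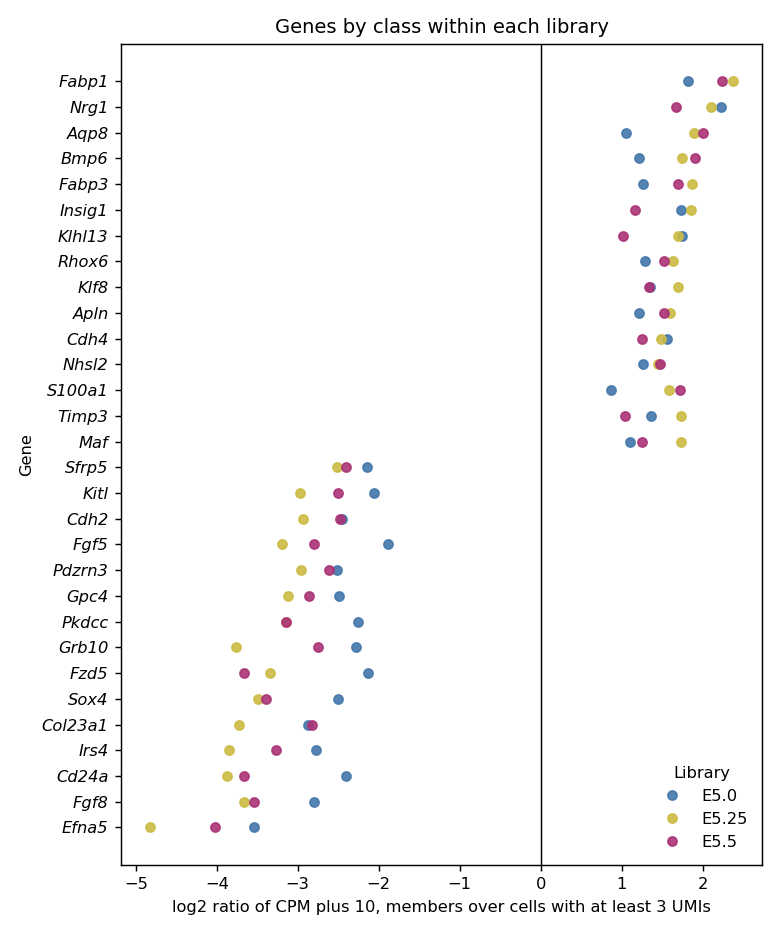
Log2 ratio of CPM plus 10 in members over the embryonic class (cells with at least 3 UMIs of the 5 genes) for the 15 higher and 15 lower genes with the largest mean ratios, 1 point for each library. All points of the first 15 genes are above 0 and all points of the other 15 below 0, as the choice of these genes required.

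Parietal-type cells, which passed the receptor and epiblast limits with the laminin and collagen sum above the secreted sum, were set beside the members. They numbered 1022. Of the 47 higher genes, 23 were also at least 2-fold higher in parietal-type cells than in the embryonic class in every library, as were 169 of all 6684 genes tested (2.53%), and 18 differed by less than 2-fold between members and parietal-type cells. Because the embryonic class is in both comparisons, the overlap of 23 genes is fixed in part. In 5 genes (Fabp3, Fst, Hspg2, Klhl13 and Me1) parietal-type cells were at least 2-fold above members in every library. Fst, for example, was at 428, 625 and 392 CPM there. Nrg1 was also above members in parietal-type cells of every library, at 1017, 759 and 533 CPM, though not by 2-fold in each. In 12 genes members were at least 2-fold above parietal-type cells in every library, among them Fabp1 (12, 16.1 and 19.1 CPM in parietal-type cells), Maf (63.1, 74.4 and 56.6 CPM), Apln (20.9, 22.3 and 23.1 CPM), S100a1, Esrrg, Fzd4 and Fdft1. The remaining 12 were mixed. The antisense gene Igf2os, also in that group of 12, is uncertain, since its reads may not be told apart from those of Igf2.

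**Figure D3:**
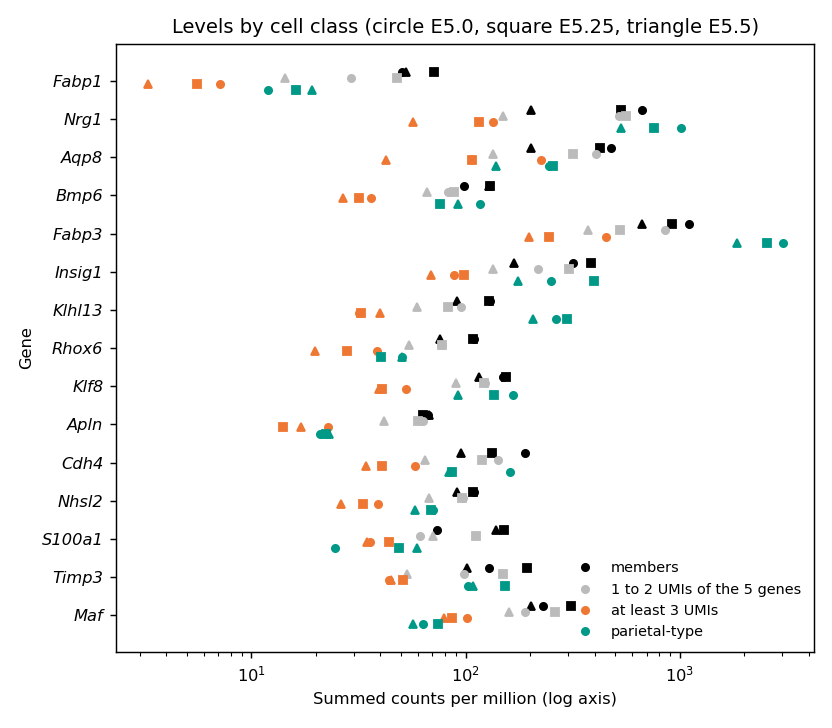
CPM on a log axis of the 15 higher genes in members, in cells with 1 to 2 UMIs, in the embryonic class and in parietal-type cells, 1 symbol for each library. Members lie to the right of the embryonic class for every gene. In every library parietal-type cells lie to the right of members for Fabp3, Klhl13 and Nrg1. They lie to the left for Fabp1, Apln, S100a1, Maf, Rhox6, Cdh4, Nhsl2 and Aqp8, and the side differs between libraries for the other genes.

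Of the 12 parietal endoderm markers, 2 belong to the rule. The other 10 summed to 2726, 2514 and 1379 CPM in members, 1937, 1570 and 1088 CPM in the embryonic class and 5666, 6642 and 4445 CPM in parietal-type cells, which were cut by laminin and collagen genes, with Tnfrsf11b at 0 in these 3 classes of each library. The sums were thus higher in members than in the embryonic class in every library, and their part in the comparison was not tested beyond the setting that follows. When cells with a laminin and collagen sum above 0.5 of the secreted sum were left out, a setting chosen after seeing the data, 43 of the 47 higher and 104 of the 109 lower genes remained.

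The lower genes were led by Efna5, the ligand ephrin A5 (chromosome 17, 62604184 to 62881317, minus strand). Efna5 had an interval of 3.25 to 6.7 CPM in members at E5.0 and was at 3.91 [2.53, 5.77] and 12.2 [7.9, 18] CPM in the later stages, against 162 [156, 168], 382 [370, 395] and 350 [321, 381] CPM in the embryonic class, which was 34-fold, 97.8-fold and 28.7-fold higher. At 5000 UMIs a UMI of Efna5 was found in 1.86%, 2.68% and 3.76% of members and in 41%, 65.9% and 61.3% of the embryonic class, and its share in trophoblast-type cells was 0.734%, 1.22% and 2.27%. The share of members was thus low, though above that of trophoblast-type cells in each library. Epiblast-type cells had Efna5 at 71.5, 117 and 124 CPM. Fgf8, a fibroblast growth factor, was at 13.2, 1.88 and 4.88 CPM in members against 151, 141 and 163 CPM, and Fgf5 at 44.1, 12 and 16.1 CPM against 190, 193 and 172 CPM.

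WNT pathway genes were among the lower genes, with 1 exception. Fzd5, a WNT receptor, was at 15.4, 10.3 and 11.7 CPM in members against 101, 195 and 265 CPM in the embryonic class. The secreted WNT antagonist gene Sfrp5 was at 5.64, 5.94 and 7.81 CPM against 58.7, 80.8 and 84.6 CPM, Rspo3, which enhances WNT signals, at 12.3, 8.44 and 18.1 CPM against 52.5, 83.5 and 96.4 CPM, and Porcn, needed for WNT secretion, at 15.9, 10.2 and 10.7 CPM against 38.7, 44.7 and 40 CPM. The exception was the receptor gene Fzd4, at 34.4, 32.8 and 22.9 CPM in members and 12.4, 9.26 and 4.59 CPM in the embryonic class. Of 12 WNT pathway genes measured, 4 were lower and 1 higher, with a median log2 ratio of -0.85 [-1.92, -0.08].

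The list of embryonic and anterior visceral endoderm genes had 10 measured members outside the rule. Of these 6 were lower (Gsc, Sfrp5, Eomes, Cyp26a1, Fgf8 and Fgf5), none was higher, and the median log2 ratio was -2.04 [-2.63, -1.02]. This direction follows in part from the choice of cells without 5 genes of the same region. Gsc, the homeobox gene goosecoid, had 0, 0.156 and 0.976 CPM in members and 36.8, 48.7 and 29.5 CPM in the embryonic class. Eomes and Cyp26a1, a T-box factor and the retinoic acid degrading enzyme, were lower but present: Eomes was at 120, 58.3 and 101 CPM in members against 381, 378 and 341 CPM.

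Adhesion, receptor and signalling genes filled the rest of the 15 lowest. Cdh2, the N-cadherin gene, was at 32.2, 37.5 and 36.6 CPM in members against 220, 353 and 249 CPM, and the glypican gene Gpc4 at 59.2, 73.3 and 108 CPM against 380, 716 and 848 CPM. Grb10, an imprinted adaptor of insulin and growth factor receptors, was at 19.3, 17 and 56.1 CPM against 132, 357 and 436 CPM. Cd24a, Irs4, Col23a1, Sox4, Pkdcc, Pdzrn3 and Kitl, the ligand of the KIT receptor, were each at least 8.42-fold lower in every library. Of all 109 lower genes, 83 were also at least 2-fold lower in parietal-type cells than in the embryonic class in every library, as were 285 of the 6684 genes tested (4.26%). Both comparisons share the embryonic class.

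Foxa1, Prdm1 and Bmp2 were lower in members as well. Foxa1, a forkhead factor of endoderm, was at 1.19, 0.625 and 2.44 CPM in members against 21.4, 34.4 and 47.9 CPM, and Prdm1, the repressor BLIMP1, at 3.26, 2.34 and 5.86 CPM against 34.4, 58.7 and 80.7 CPM. Bmp2 was at 5.64, 6.56 and 13.7 CPM against 26.3, 49.3 and 67.6 CPM. Id2, a common target of BMP signals, went the other way, at 318, 437 and 494 CPM in members against 136, 131 and 183 CPM. Of 13 BMP pathway genes measured, Id2 was higher and Bmp2 lower, with a median log2 ratio of -0.01 [-0.75, 0.78]. Of 8 NODAL pathway genes none was called (median -0.09 [-0.37, 0.27]). Bmp6 and Fst, both higher in members as given above, are not counted in these 2 lists. Of 13 FGF, VEGF and hedgehog genes, Ihh and Pdgfra were higher and Fgf5, Fgf8 and Fgf10 lower.

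The genes of cholesterol synthesis shared a direction. Of 19 measured, 18 had a ratio above 0 and the median log2 ratio was 0.70 [0.43, 0.87], although only Fdft1 and Insig1 reached 2-fold in every library. Fdft1, squalene synthase, was at 169, 194 and 143 CPM in members against 68.1, 72.2 and 59 CPM in the embryonic class. Insig1, a sterol-sensing protein of the endoplasmic reticulum that holds back SREBP processing, was at 316, 385 and 168 CPM against 87.9, 98.8 and 68.9 CPM. Hmgcs1, the enzyme that makes HMG-CoA, was at 357, 420 and 219 CPM against 162, 214 and 193 CPM, a ratio below 2-fold in the last 2 libraries.

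Promoters of this list were searched for the sterol element bound by SREBP, spelled TCACNCCAC on either strand, in RefSeq windows of GRCm38.p6 that ran from 250 bases before to 50 after a start site. Hmgcs1 was the 1 gene of the 16 with a window that held it (6.25%), against 1.36% of the tested genes with a window and 1.24% of all 32851 windows of this length. The 250 bases before its start (chr13:119690101-119690350, plus strand) are shown because this is the match among the sterol genes, with the element, 137 bases before the start, in capitals.
Hmgcs1: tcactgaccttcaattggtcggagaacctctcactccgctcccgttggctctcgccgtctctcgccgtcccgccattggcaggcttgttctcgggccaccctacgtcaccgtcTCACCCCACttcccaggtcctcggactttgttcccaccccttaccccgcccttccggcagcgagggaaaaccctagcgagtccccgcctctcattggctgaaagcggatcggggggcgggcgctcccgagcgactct

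Endosome and lysosome genes mostly had ratios above 0 without reaching 2-fold. Of 27 endosome and lysosome genes measured, 25 had a ratio above 0, with a median log2 ratio of 0.35 [0.20, 0.52], and the transcription factor gene Tfeb, which drives lysosomal genes, was the 1 called, at 34.1, 39.2 and 33.7 CPM against 12.7, 12.1 and 12.5 CPM. The cathepsin gene Ctsz was at 601, 599 and 474 CPM against 369, 296 and 244 CPM, below 2-fold at E5.0 and E5.5. The 7 uptake receptors and adaptors outside the rule had a median of 0.15 [-0.49, 0.56] with none called.

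Lipoprotein genes differed less than the fatty acid binders. Of 12 measured, Fabp1 and Fabp3 were called and the median log2 ratio was 0.24 [0.02, 0.90]. Apoa4 was at 129, 229 and 221 CPM in members against 130, 149 and 142 CPM, and Mttp, which loads lipid onto apolipoprotein B, at 240, 259 and 216 CPM against 237, 222 and 166 CPM. Serum carriers other than these went the other way: of 7 measured, Afp, Rbp4 and Trf were lower and none higher, with a median of -1.02 [-1.74, 0.26]. Trf, transferrin, was at 4.15, 15.8 and 24.9 CPM in members against 41.3, 66.3 and 72.2 CPM.

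**Figure D4:**
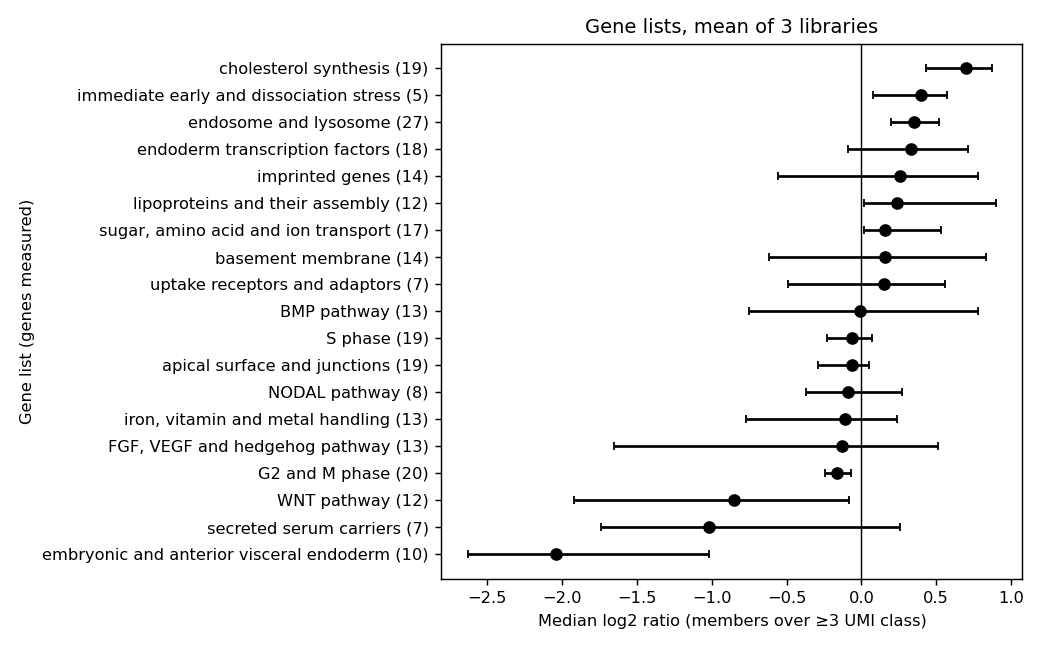
Median log2 ratio of members over the embryonic class for each of the 19 pathway lists (lists of markers of other cell types are not drawn), averaged over the 3 libraries, with the order-statistic 95% interval over genes. For the shortest lists the interval is the full range. Cholesterol synthesis (0.70) and the embryonic and anterior list (-2.04) are the highest and lowest of the lists drawn, beside a median of 0 for all genes tested.

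Across stages, members of E5.25 against E5.0 were at least 2-fold higher for 30 of 6925 genes (0.433%) and lower for 17 (0.245%). Members of E5.5 against E5.25 were higher for 111 of 7100 genes (1.56%) and lower for 40 (0.563%). From E5.0 to E5.5, 135 of 7039 genes were higher (1.92%) and 68 lower (0.966%). Among the genes with the largest change from E5.0 to E5.5, serum carriers, metallothioneins and imprinted genes were higher, and Nrg1 was lower. In bulk sums of a class, fewer cells with a transcript and less of it per cell cannot be told apart.

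Afp, alpha-fetoprotein, the main serum protein of fetal endoderm, had the widest range over stages, at 2.97 [1.81, 4.58], 15.3 [12.4, 18.7] and 96.6 [83.6, 111] CPM, which is 32.6-fold from E5.0 to E5.5. At 5000 UMIs the share of members with an Afp UMI was 1.63%, 5.85% and 25.6% (3.49%, 13.2% and 32.3% unthinned), against at most 0.73% of trophoblast-type cells. In the embryonic class Afp was at 29.6, 112 and 261 CPM. Members therefore stayed below the embryonic class at each stage, by 9.98-fold, 7.3-fold and 2.7-fold. Rbp4, the retinol carrier, was at 20.2, 38.6 and 77.1 CPM in members, and Apoa2, an apolipoprotein of high-density particles, at 20.2, 75.8 and 102 CPM. Both were also higher from stage to stage in the embryonic class, at 77.1, 159 and 200 CPM and at 31, 55.8 and 68.2 CPM.

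The Afp promoter held a match to the HNF1 motif, spelled GTTAATTATT with any base in the seventh place, on either strand. It was the 1 gene with the motif among the 79 lower genes that had a window (1.27%), no higher gene of 36 had it, and 0.223% of the 5383 tested genes with a window did. The 250 bases before its start (chr5:90490464-90490713, plus strand, RefSeq on GRCm38.p6) are shown because Afp ranged most over stages, with the match, 105 bases before the start, in capitals.
Afp: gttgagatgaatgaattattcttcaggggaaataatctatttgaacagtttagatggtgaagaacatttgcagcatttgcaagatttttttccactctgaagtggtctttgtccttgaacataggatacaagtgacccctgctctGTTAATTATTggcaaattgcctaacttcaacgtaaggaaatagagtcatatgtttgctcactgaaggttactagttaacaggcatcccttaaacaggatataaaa

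The metallothionein genes Mt1 and Mt2 were higher from stage to stage, at 3.35-fold and 4.71-fold from E5.0 to E5.5, whereas the 13 genes of iron, vitamin and metal handling to which they belong had a median log2 ratio of -0.24 [-0.67, 0.89], with Slc40a1 lower. Mt1 and Mt2 were at 495, 1031 and 1656 CPM and at 169, 388 and 799 CPM. The embryonic class changed in the same direction, at 1035, 1712 and 2381 CPM and at 415, 778 and 1160 CPM. Peg10, a paternally expressed gene derived from a retrotransposon, was at 130, 480 and 583 CPM, and Cdkn1c, a maternally expressed inhibitor of the cell cycle, at 11.3, 49.5 and 96.1 CPM. Both were also higher from stage to stage in the embryonic class, at 98.8, 187 and 280 CPM and at 6.1, 10.1 and 24.9 CPM. The 17 imprinted genes measured had a median log2 ratio of 0.85 [0.12, 1.33] for E5.5 over E5.0, with 8 higher and none lower. Pdcd4, an inhibitor of translation, was at 33.5, 91 and 107 CPM, and the early response gene Egr1 at 18, 52.7 and 66.4 CPM. Embryonic class levels were 50.1, 128 and 150 CPM for Pdcd4 and 8.07, 16 and 21 CPM for Egr1. Early response genes, which cell dissociation can induce, moved with stage: 7 of 9 were higher at E5.5 than at E5.0, with a median of 0.90 [0.69, 1.45], and 1 of 5 (Egr1) without the cells described below that carried trophoblast genes, with a median of 0.48 [0.38, 1.34]. Their part in the other stage results was not tested.

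Nrg1, higher in members than in the embryonic class at each stage, went down over stages, at 664, 529 and 203 CPM, 3.27-fold from E5.0 to E5.5. Hmgb3, a chromatin protein gene, was at 307, 120 and 89.3 CPM, and Pmepa1, a TGF-beta target and inhibitor, at 93.9, 48.4 and 27.8 CPM. Slc40a1, the iron exporter ferroportin, was at 149, 83.9 and 58.1 CPM, and Srgn, the proteoglycan serglycin, at 862, 727 and 344 CPM. Each of these genes was lowest at E5.5 in members and also in the embryonic class. There Nrg1 was at 134, 116 and 57.1 CPM, Hmgb3 at 510, 382 and 300 CPM and Srgn at 880, 742 and 466 CPM. Pmepa1 was at 146, 118 and 72.8 CPM in that class, and Slc40a1 at 200, 146 and 115 CPM. Mesd and Sdf2l1, chaperones of the endoplasmic reticulum, the small heat shock gene Hspb1, the protease gene Htra1 and the phospholipid enzyme gene Chpt1 were lower from E5.0 to E5.5 by 2.83-fold, 2.83-fold, 2.53-fold, 4.54-fold and 3.01-fold. The 20 cholesterol synthesis genes had a median log2 ratio of -0.65 [-0.74, -0.41] for E5.5 over E5.25, with Ebp and Insig1 called lower, and 0.06 [-0.01, 0.18] for the step before.

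Eomes, Cyp26a1 and Fgf5, genes of the embryonic region still found in members, were at least 2-fold lower at E5.25 than at E5.0. Cyp26a1 was at 133, 56.4 and 76.6 CPM over the 3 stages and Fgf5 at 44.1, 12 and 16.1 CPM. None of these 3 genes was called at the next step.

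Trophoblast genes moved with the last step. Members with at least 2 UMIs of Elf5, Tfap2c, Hand1 and Ascl2 per 10000 were 5.35%, 4.15% and 27.4% of members (73 cells at E5.5). At E5.5 such cells were also 14.4% of the embryonic class, 33% of visceral endoderm cells with 1 to 2 UMIs of the 5 genes and 20.8% of parietal-type cells. The 14 trophoblast markers summed to 381, 281 and 685 CPM in members and to 2110, 2119 and 2291 CPM in trophoblast-type cells, with Tpbpa at 0 in members of each library. Hand1, a transcription factor of trophoblast giant cells, was at 49.4, 34.9 and 197 CPM in all members and at 2.79, 3.7 and 7.14 CPM without those cells, a drop that the choice of cells fixes in part. The 10 other trophoblast markers, which did not choose the cells, summed to 290, 218 and 297 CPM with them and 252, 193 and 183 CPM without them. Eomes and Rhox6 made up much of this, and the 7 markers other than these and Tpbpa summed to 61.9, 51.4 and 120 CPM with the cells and 34.3, 34 and 47.8 CPM without. Giant cell markers summed to 12.2, 12.5 and 58.1 CPM over 8 genes.

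Of the 111 genes higher at E5.5, 83 were at least 2-fold higher still in trophoblast-type cells, as were 249 of all 7100 genes tested (3.51%). Without the cells with trophoblast genes, 30 of 6899 genes were higher (0.435%) and 27 lower (0.391%) at E5.25 than at E5.0. At the last step 26 of 6985 genes were higher (0.372%), of which 16 were among the 111, and 40 were lower (0.573%), of which 23 were among the 40. Removing cells with the highest doublet scores took 6, 6 and 19 members and left the count of higher genes at 111. The 16 genes included Afp (109 CPM at E5.5 without those cells), the fibrinogen chain gene Fgb, Mt2, Phlda2, Slc38a4, Ccne1, Epha2 and Spry2. Krt8, a keratin, was at 125, 182 and 409 CPM in all members and at 274 CPM at E5.5 without those cells, and the early response gene Fos, at 31.9, 33.1 and 107 CPM in all members, was at 8.21, 13.6 and 14.3 CPM without them. Values for Nrg1 (256 CPM), Rbp4 (97.8 CPM), Peg10 (613 CPM) and Mt1 (1981 CPM) at E5.5 without those cells kept the order described above, and the imprinted list's median was 0.58 [0.06, 1.16] and that of cholesterol synthesis for the last step -0.63 [-0.75, -0.34], where Msmo1 in place of Ebp was called lower beside Insig1. The comparison with the embryonic class held 46 of its 47 higher and 105 of its 109 lower genes without them.

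**Figure D5:**
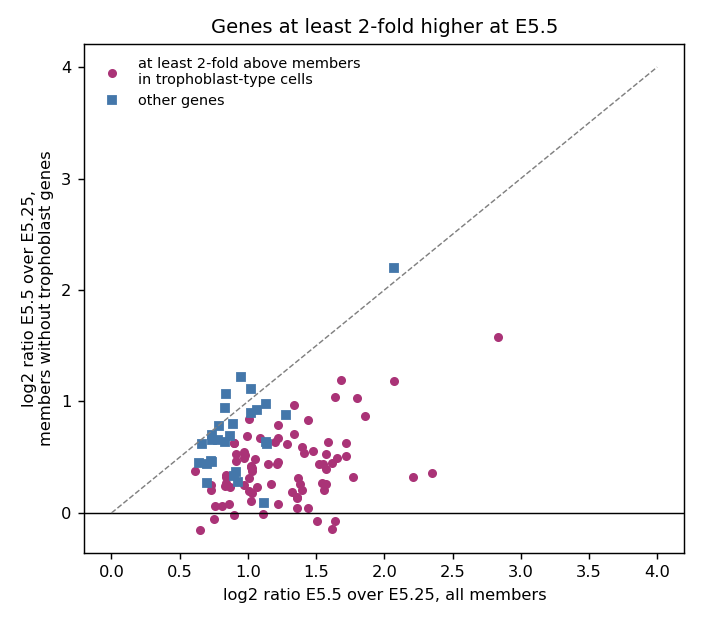
Log2 ratio of E5.5 over E5.25 (CPM plus 10) for the 111 genes higher at E5.5, in all members (horizontal axis) and without the cells that carried trophoblast genes (vertical axis), with genes at least 2-fold higher in trophoblast-type cells than in members as circles. Most circles lie far below the dashed line of equal ratios, and Afp, the square at 2.07, lies above it.

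Members also varied among themselves. With every cell thinned to 5000 UMIs, the Fano factor (variance over mean of the UMI count, 1 for counting error alone) had a median of 1.13, 1.15 and 1.13 over 1861 genes, and 59 genes had at least 2 in every library. The nuclear RNA Malat1 had factors of 7.3, 7.03 and 6.97 and Xist, the RNA of the inactive X chromosome in female cells, 8.77, 10.5 and 5.35. The sex of the embryos is not given in the labels. The ferritin genes Fth1 and Ftl1 had 5.21, 6.45 and 6.41 and 4.08, 3.76 and 4.72, while Ftl1-ps1, a near copy of Ftl1, is uncertain. Of genes with known roles in this tissue, Gpc3, a glypican, had 4.16, 6.2 and 4.88, Fabp3 3.68, 4.72 and 3.9, Spink1, a secreted protease inhibitor, 3.21, 2.92 and 5.86, Mt1 3.96, 4.81 and 4.87, and Mt2 2.9, 3.74 and 3.23.

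The rule genes Apoc2, Apoa1 and Ttr, whose levels took part in the choice of cells, ranked together over members and with Spink1. Other genes of secreted proteins did not all follow. Nrg1 had correlations of -0.07, -0.19 and 0.08 with Apoc2 and of 0.07, -0.10 and -0.01 with Spink1. Spearman correlations over the 430, 410 and 266 members, which share library and thinned depth and are given as a description, were 0.56, 0.55 and 0.73 for Apoc2 with Ttr, 0.50, 0.47 and 0.61 for Apoa1 with Ttr, and 0.33, 0.52 and 0.67 for Apoc2 with Spink1. Cubn with Gpc3 had 0.53, 0.50 and 0.61, and Cubn with Nrg1 0.42, 0.43 and 0.38. Apoc2 with Cubn had -0.15, -0.13 and 0.36, and Fabp3 with Gpc3 -0.33, -0.39 and 0.04. The sign at E5.5 thus differed from the other libraries for these last pairs, as it did for Cubn with Ttr (-0.06, -0.09 and 0.34) and Cubn with Fabp3 (-0.15, -0.11 and 0.31). Cells with trophoblast genes were 5.35%, 4.15% and 27.4% of members, and the correlations were not recomputed without them. The part of those cells in the change of sign was not tested.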

How the data were processed

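Whole embryos were dissociated and profiled on the 10x Chromium platform (3′ chemistry), per the labels' protocols. The deposited files hold raw UMI counts for 32285 genes per cell barcode, written by the authors with Cell Ranger 7.1.0 per the file headers; mm10, GRCm38 and also hg38, without a stated role for these mouse libraries, are named in the submitters' processing notes, and the annotation release behind the counts was not stated. No column was left unmapped to a sample. Gene IDs were matched to GENCODE M21 on GRCm38 (32235 of 32285).

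From these counts, cells were filtered and classed by the rule in the text, and UMIs were summed over each class and library and divided by the class total to give CPM. Epiblast-type and trophoblast-type cells are reference classes cut by the same kind of gene sums. With 1 library for each stage no p-value was computed and no difference has a replicate check. A gene was called at 2-fold or more with at least 20 CPM in the higher class, in every library for comparisons between classes. Log2 ratios used CPM plus 10. Intervals are exact Poisson (CPM), Clopper-Pearson (shares) or order-statistic (list medians) at 95%, and a count of 0 was given a limit of 3 counts. For the shortest lists the interval of the median is the full range, which can cover under 95%. Random thinning to 5000 UMIs used a fixed seed. No doublets were removed in the values of the text. Removal of the cells with the highest Scrublet scores was an alternative, with the number to remove set from the number of cells in the library.

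Members and gene lists were chosen with earlier results of these data known. Named genes were the 15 highest and 15 lowest mean ratios among called genes that reached 50 CPM where they were higher and at least 0.5 of the level of epiblast-type and trophoblast-type cells, the 10 that changed most in each direction from E5.0 to E5.5 with the same direction at both steps, the 10 most variable, and examples from the lists. The 22 rule genes, mitochondrial, ribosomal, haemoglobin and unnamed genes were left out. Other genes, such as Ghr, Esrrg, Me1 and those shared by both settings of the last step, were named after their values were seen. The stage result of 1 gene list is not reported here. The promoters were also searched for HNF4 and GATA motifs, given in the closing section. Scripts were tested on simulated counts. Python 3.11.15, numpy 2.4.6, scipy 1.17.1, pandas 2.3.3, scanpy 1.11.5 and matplotlib 3.10.9 were used.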

Additional observations from a re-analysis of the deposited data

Results flagged for a closer look

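Cells that met the same rule were also present in 2 earlier libraries that the comparisons do not use. At E4.5, 65 cells met it, which is 40.4% of 161 cells within the visceral endoderm limits, and at E4.75, 76 cells did, which is 11.5% of 660. None of the 87 passing cells at E3.5 did. These shares were not thinned, and they depend on depth: passing cells had medians of 10782 UMIs at E4.5 and 31579 UMIs at E4.75. The E4.5 embryos came from superovulated females of 4 weeks and the E4.75 cells were not filtered. Nrg1 was at 504 CPM in the E4.5 cells and 647 CPM in the E4.75 cells, Fabp3 at 1101 and 1135 CPM, and Maf at 157 and 166 CPM. Fabp1 was at 2.57 and 8.67 CPM, Apln at 16.7 and 57 CPM, the rule gene Apoc2 at 152 and 196 CPM, and Afp had no count in either. Their levels of Nrg1 and Fabp3 were within 1.5 times those of the E5.0 members, while Fabp1 and Apoc2 were lower. Stage cannot be told apart from library here.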

How the results depend on the processing

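No paired analysis was possible because each stage is 1 library. The members' share of visceral endoderm depended most on the depth and on which genes had to be absent. Read after a second random thinning to 5000 UMIs it was 41.4% at E5.0 and 49.3% at E5.25. Without Lhx1 in the rule it was 37%, 43.7% and 53% over the 3 stages, without Sfrp1 27.6%, 40.8% and 53.2%, and without Otx2 27.5% at E5.0 and 53.7% at E5.5. With the laminin and collagen sum at most 0.5 of the secreted sum, chosen after seeing the data, it was 21.2% at E5.0 and 33% at E5.25, and 26 genes were lower at E5.25 than at E5.0. Against visceral endoderm cells with at least 1 UMI of the 5 genes, 25 genes were higher in members, all 25 among the 47, and 81 of the 109 lower genes remained. With the 5 genes read after thinning to 5000 UMIs, 38 of the 47 higher and 104 of the 109 lower genes remained. Without Lhx1 in the rule 40 higher and 101 lower genes remained, and without Sfrp1 40 and 103. Leaving out 1 library gave 49 to 112 higher and 111 to 176 lower genes, the highest counts without the E5.0 library (112 and 176), as 2 libraries have to pass in place of 3. Without cells that carried trophoblast genes, 27 genes were lower at E5.25 and 26 higher at E5.5, against 17 and 111. With no minimum CPM, 268 genes were higher and 627 lower in members, 2909 and 2128 at E5.25 and 2301 and 3712 at E5.5. Median-of-ratios scaling gave 26 genes lower at E5.25. Thinning to 8000 UMIs gave 108 genes with a Fano factor of at least 2 in every library. Of the medians of the 19 pathway lists, 948 moved little under the alternatives and 2 moved more, both without the trophoblast gene cells: endosome and lysosome at the last step, from -0.28 to -0.14, and early response genes, from 0.74 to 0.19. Trophoblast markers at that step went from 1.38 over 9 genes to -0.12 over 2, which the choice of cells fixes in part. Of the log2 ratios recomputed for the genes with the largest differences, 195 moved by more than their interval and none changed sign. Among genes not called, Apoe (-0.05 to 0.24), Bmp6 (-0.02 to 0.14), S100a1 (-0.13 to 0.12) and Ttr (-0.15 to 0.10) changed sign at the last step without the trophoblast gene cells, and Hand1 at E5.5 went from above to below the embryonic class. The cause of these changes was not tested except where stated.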

Other observations

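Cell cycle and epithelial genes differed little between members and the embryonic class. None of 19 S phase genes was called (median log2 ratio -0.06 [-0.23, 0.07]), nor was any of 20 G2 and M phase genes (median -0.16 [-0.24, -0.07]) or of 19 genes of the apical surface and junctions (median -0.06 [-0.29, 0.05]). Of 17 transporters of sugars, amino acids and ions, Aqp8 and Atp1b1, a sodium pump subunit, were higher (median 0.16 [0.02, 0.53]), with Atp1b1 at 357, 407 and 296 CPM in members against 170, 144 and 104 CPM. Of 13 genes of iron, vitamin and metal handling none was called (median -0.11 [-0.77, 0.24]). Of 14 basement membrane genes outside the rule, Hspg2, which encodes perlecan, was higher and the laminin receptor gene Itga6 lower (median 0.16 [-0.62, 0.83]). Of 14 imprinted genes, Mest and Grb10 were lower (median 0.26 [-0.56, 0.78]), and of 5 early response genes none was called (median 0.40 [0.08, 0.57]).

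The 8 epiblast markers outside the rule summed to 2034, 1381 and 1312 CPM in members, 2238, 1806 and 1563 CPM in the embryonic class and 6161, 5676 and 4693 CPM in epiblast-type cells, which were cut by other epiblast genes. The GATA motif AGATAA, searched on both strands, was in 1 of 36 promoters of higher genes (2.78%) and 8 of 79 of lower genes (10.1%), against 7.04% of tested genes, and the HNF4 motif in 1 of 36 and 2 of 79 (2.53%), against 1.02%. The SREBP element was in 1 of 36 (Ihh) and 1 of 79 (Fgf5), against 1.36%.

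For E5.5 over E5.0 in members, beside a median of 0.03 for all genes tested, 4 of 7 serum carriers were higher (Afp, Rbp4, Trf and Fgb, median log2 ratio 1.01 [-0.39, 3.04]). Of 19 transporters, Slc16a3, Slc13a4, Slc38a4 and Aqp3 were higher and Slc7a7 and Aqp8 lower (median 0.22 [-0.26, 0.74]). Of 21 apical and junction genes, Cldn4, Krt8 and Krt19 were higher (median 0.03 [-0.19, 0.34]), and of 17 endoderm transcription factors Cdx2 and Hand1 (median -0.11 [-0.46, 0.24]). Apoa2 of 12 lipoprotein genes and Pcsk6 of 9 NODAL pathway genes were higher (medians 0.01 [-0.51, 0.39] and 0 [-0.10, 0.65]), and Fgf5 and Fgf10 of 14 FGF, VEGF and hedgehog genes lower (median -0.06 [-0.56, 0.30]). None was called among 8 uptake receptors (-0.30 [-0.97, 0.43]), 27 endosome and lysosome genes (-0.13 [-0.30, 0]), 13 BMP (0.18 [0.04, 0.62]) and 8 WNT pathway genes (-0.11 [-0.43, 0.67]), 12 basement membrane genes (-0.20 [-0.69, 0.23]), 19 S phase genes (0.21 [-0.07, 0.27]) and 20 G2 and M phase genes (0.01 [-0.08, 0.10]). Without the members that carried trophoblast genes, Cldn4, Krt19, Cdx2, Hand1, Slc38a4, Pcsk6 and Slc7a7 were no longer called in these lists. Apoa4, Foxa3, Smad6 and Smad9 were higher in addition. Smad6 and Smad9 belong to the BMP pathway list, which then had a median of 0.34 [0.02, 0.74] over 12 genes. The serum carriers' median was 1.27 [-0.21, 3.17] with the same 4 genes higher.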
